A study of Mus musculus with 18 samples.

Results

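A set of 5 genes of the interferon regulatory factor (IRF) family, Irf1, Irf2, Irf3, Irf5 and Irf8, were followed in B cells of lupus-prone mice before and after stimulation of an endosomal Toll-like receptor (TLR). They were taken by symbol, 5 of the 23420 genes listed, as the IRF genes outside the core of ISGF3, the IRF9-containing complex that forms below the type I interferon receptor. All 5 passed the filter on low values (over 0 log2 CPM in at least 3 of the libraries fitted), as did 11494 genes in the first arm of the study and 11082 in the second.

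B cells were purified from MRL/lpr spleens on beads that removed other cells. MRL/lpr mice carry the Fas lpr mutation and develop spontaneous lupus. The 18 libraries formed 6 groups of 3, all from mice aged 5 to 7 weeks and all cultured for 4 h. In the first arm the mice were female and Tlr7-/-, and the cells were either Tlr9+/- (called Tlr9het) or Tlr997, whose TLR9 carries the signaling (TIR) domain of TLR7. These cells were left unstimulated or given the TLR9 agonist CpG at 10 µg/ml. In the second arm the mice were male and Tlr9-/-, and their TLR7 carried the TIR domain of TLR9 (Tlr779). These cells were left unstimulated or given the TLR7 agonist CL097 at 5 µg/ml. Both chimeric alleles sit at the receptor's own locus, with the new TIR sequence and a stop placed ahead of the original one. The study describes the chimeric proteins as less abundant than the receptors of wild-type cells, and cells with a single functional Tlr9 copy served as the control of Tlr997 for that reason. For the control cells of this first arm, titles read Tlr9+/- whereas the treatment protocol reads Tlr9-/-. The titles were followed here, and each comparison of genotypes rests on them. A Tlr9-/- control with unmodified TLR7 was not analysed here. The arms differed in sex, genotype and agonist together, so that these cannot be told apart and no difference between arms was tested. The protocol names 3 mice per genotype without saying that a replicate number marks a mouse.

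IRF proteins bind DNA elements built on GAAA repeats in interferon genes and in genes that interferon induces. IRF1 is an activator that interferon-γ induces, and IRF2 binds the same elements and antagonizes it. IRF3 is present in resting cells and is switched on by phosphorylation through TBK1, while IRF5 is switched on below MyD88 and drives inflammatory cytokine genes, with risk variants known in human lupus. IRF8 is a lineage factor that binds DNA with ETS partners such as PU.1 and takes part in B cell and germinal center programs, where IRF4, its closest relative, favors plasma cells at high levels.

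The sequences just upstream of Irf1, Irf2 and Irf8 are shown because these genes responded in opposite directions and their upstream windows hold letters that STAT, IRF or NF-κB factors are known to bind. The sequences are RefSeq's, build GRCm38.p6, plus strand, and end at the base before the first annotated start or, for Irf2, at the base before another annotated transcript begins. They cover chr11:53769764-53770013 for Irf1, chr8:46739495-46739731 for Irf2 and chr8:120736108-120736357 for Irf8. Capitals mark the motif TTCNNNGAA (the STAT element GAS), the IRF motif GAAANNGAAA and the NF-κB motif.
Irf1: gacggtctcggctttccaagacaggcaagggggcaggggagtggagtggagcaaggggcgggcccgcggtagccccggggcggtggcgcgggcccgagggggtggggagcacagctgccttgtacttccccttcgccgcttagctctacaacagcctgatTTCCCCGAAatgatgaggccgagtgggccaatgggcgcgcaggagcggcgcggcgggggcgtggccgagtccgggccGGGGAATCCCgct
Irf2: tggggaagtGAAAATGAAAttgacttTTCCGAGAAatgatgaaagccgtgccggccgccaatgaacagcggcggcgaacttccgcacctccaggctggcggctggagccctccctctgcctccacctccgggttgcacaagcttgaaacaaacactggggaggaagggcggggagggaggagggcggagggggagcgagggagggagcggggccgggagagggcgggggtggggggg
Irf8: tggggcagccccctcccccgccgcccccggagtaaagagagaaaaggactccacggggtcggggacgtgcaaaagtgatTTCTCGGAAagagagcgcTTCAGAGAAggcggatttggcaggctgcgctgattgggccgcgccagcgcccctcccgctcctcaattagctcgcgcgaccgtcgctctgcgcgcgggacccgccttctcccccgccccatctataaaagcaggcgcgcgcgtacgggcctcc

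The window of Irf1 held a GAS match 90 to 82 bases before the start and an NF-κB match 13 to 4 bases before it. The window of Irf2 held an IRF match 241 to 232 bases before the start, a GAS match 224 to 216 bases before it and an NF-κB match 17 to 8 bases before it, the last of which runs across the end of the printed stretch and is left in lower case there. Irf8 held 2 GAS matches, 171 to 163 and 153 to 145 bases before its start. No match to the 3 motifs was found in the window of Irf3 or of Irf5, or at the other annotated start of Irf1 or of Irf8. Among 32851 RefSeq promoters, searched on both strands over the same 250 bases, 7.02% held GAS, 2.98% the IRF motif and 7.25% the NF-κB motif, and a match is a description of letters, not of a bound site.

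Levels are given as log2 CPM (read counts scaled to library size, on a log2 scale), the unit of the deposited values, which had been quantile normalized. No counts were analysed here, so the depth of each library is unknown. The summed CPM of a library lay between 991992 and 1004412, and Pearson's r between replicates, taken across genes, was 0.95 to 0.99. Tlr7 was at 3.15 ± 0.42 in unstimulated Tlr9het, 4.96 ± 0.20 in unstimulated Tlr997 and 6.88 ± 0.40 in unstimulated Tlr779 (log2 CPM, SD, n = 3 each). Without stimulation Tlr9 stood at 7.24 ± 0.08 in Tlr779 against 7.37 ± 0.10 in Tlr9het (SD, n = 3 each), so that its gene-level value did not set the libraries labelled Tlr9-/- apart. All 8 B cell markers, Pax5 and Ms4a1 among them, were over 0 log2 CPM in every library. Their summed level lay between 6115 and 7959 CPM in unstimulated libraries, between 1945 and 1993 with CpG in Tlr9het, between 2993 and 3537 with CpG in Tlr997 and between 2745 and 3413 with CL097 in Tlr779. All 8 macrophage markers were also over 0 in every library, at a summed level of 87.2 to 248 CPM. The dendritic cell list summed to between 679 and 1027 CPM in unstimulated and between 1726 and 2805 CPM in stimulated libraries, but most of this sum was Ccr7, which B cells express too and which went from 9.51 ± 0.10 to 10.78 ± 0.09 log2 CPM with CpG in Tlr9het (SD, n = 3 each). In the same libraries Itgax was at 2.58 ± 0.26 and 2.13 ± 0.24 (SD, n = 3 each). Zbtb46 was at 3.91 ± 0.20 and 5.71 ± 0.18 there, and Flt3 at 3.65 ± 0.20 and 3.98 ± 0.07 (SD, n = 3 each). Xcr1, Clec9a, Cd209a and Batf3 did not pass the filter on low values in either arm. Of the 4 markers tested, 2 were called higher with CpG in each genotype and 3 with CL097, and 0 were called lower. Over all tested genes 29.7% (Tlr9het), 29.6% (Tlr997) and 22.7% (Tlr779) were called higher. Erythroid markers ranged from 111 to 4098 CPM between libraries. Macrophages and dendritic cells also express Irf5 and Irf8, and the part that such cells have in the results was not tested. In bulk samples such as these, fewer cells of a type and less RNA per cell cannot be told apart.

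Before stimulation the group means over the 3 genotypes ranged most widely for Irf1. Irf8 was at 8.83 to 8.95, Irf2 at 8.31 to 8.50, Irf5 at 7.90 to 8.01, Irf1 at 7.05 to 7.42 and Irf3 at 5.82 to 6.08 (means of the 3 unstimulated groups, log2 CPM). The highest unstimulated Tlr779 library for Irf1, at 7.16, lay below the lowest unstimulated library of the first arm, at 7.22. No difference between arms was tested. Levels of different genes were compared per kilobase of exon only. In unstimulated Tlr9het cells Irf5 was at 6.48 ± 0.07, Irf8 at 6.01 ± 0.12, Irf1 at 5.43 ± 0.09, Irf2 at 5.42 ± 0.02 and Irf3 at 4.30 ± 0.15 log2 CPM per kilobase of all annotated exons (SD, n = 3 each). Irf1 and Irf2 did not differ beyond their spread on this scale. The order depends on the length used: per kilobase of the longest RefSeq transcript, Irf8 came first at 7.32, followed by Irf2 at 6.99, Irf5 at 6.85, Irf1 at 6.33 and Irf3 at 5.06. On both scales Irf3 was the lowest of the 5 in unstimulated Tlr9het cells, and Irf8 the highest after CpG, at 6.94 and 8.25 respectively.

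**Figure D1:**
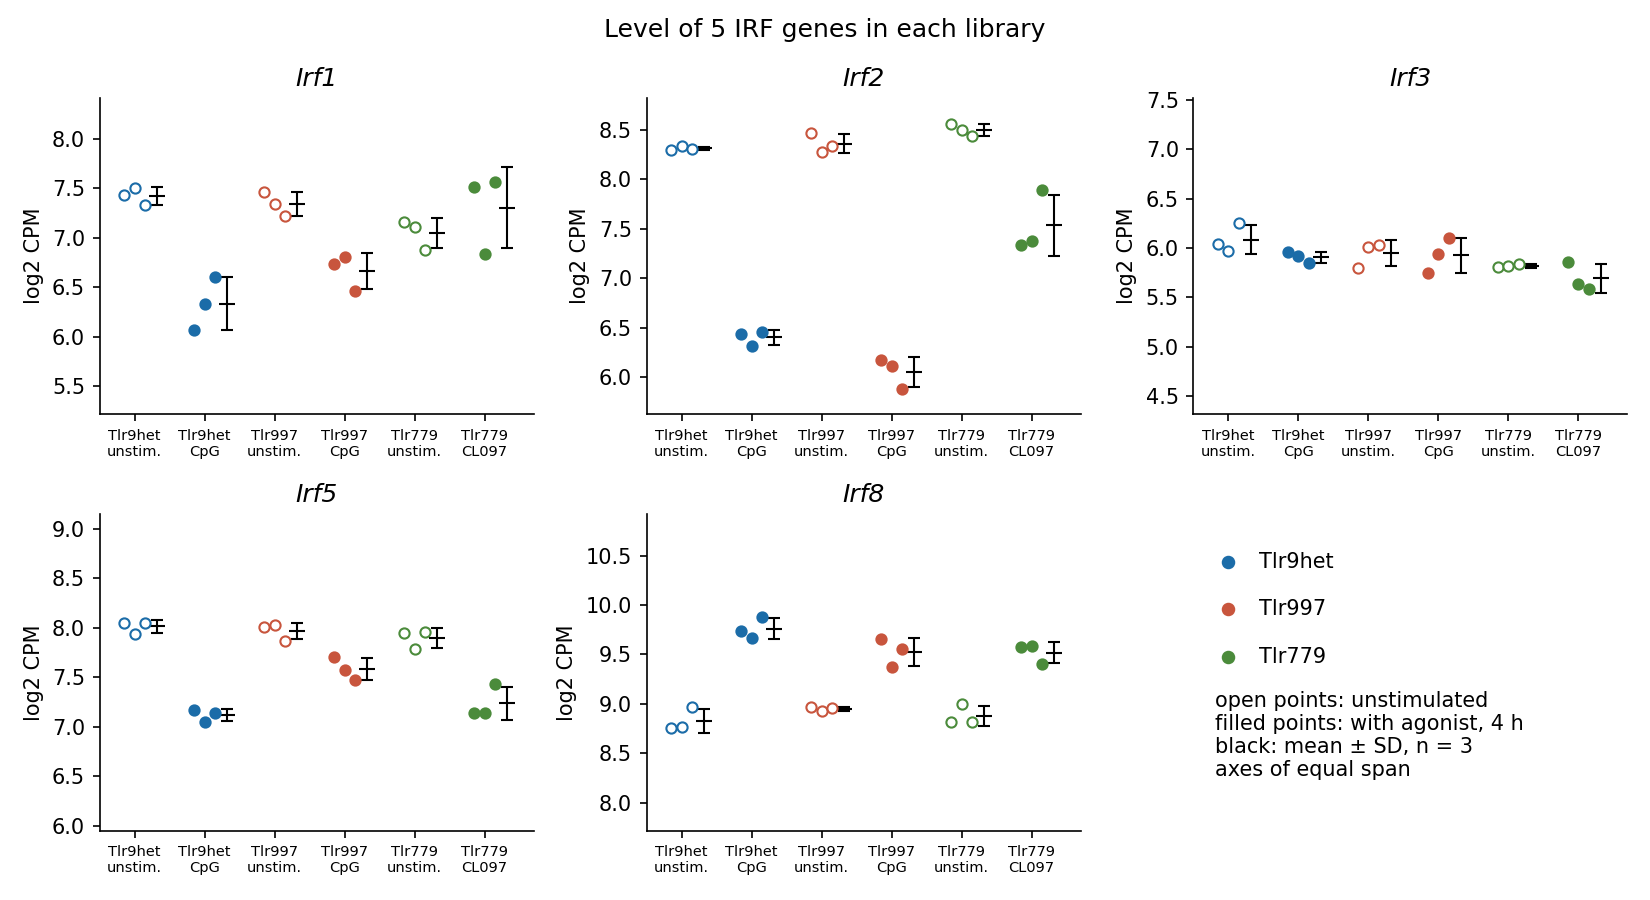
Level of each gene in every library in log2 CPM (vertical axes, each spanning the same range) by group (horizontal axes), with open points for unstimulated and filled points for stimulated libraries and black marks for the mean ± SD of 3 libraries. Irf2 and Irf5 lie lower and Irf8 higher in every stimulated library than in any unstimulated library of the same genotype, Irf1 lies lower with CpG but overlaps with CL097, and Irf3 stays between 5.58 and 6.25 throughout.

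To see how each gene responded, stimulated and unstimulated libraries of a genotype were compared with limma over all tested genes, and a call required a Benjamini-Hochberg adjusted p below 0.05 together with a log2 fold change of more than 0.5 in size. CpG lowered Irf1, Irf2 and Irf5 and raised Irf8 in Tlr9het cells, 4 of 5 genes, where 29.7% of the 11494 tested genes were called higher and 28.2% lower. In Tlr997 cells CpG lowered Irf1 and Irf2 and raised Irf8, 3 of 5 genes, where 29.6% of tested genes were called higher and 26% lower. CL097 lowered Irf2 and Irf5 and raised Irf8 in Tlr779 cells, 3 of 5 genes, where 22.7% of the 11082 tested genes were called higher and 23.6% lower. With shares this large, a call alone does not set an IRF gene apart from other genes, and the sizes of the changes are given below for each gene.

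Irf1, the interferon-induced activator (chromosome 11, 53770014 to 53778374, GRCm38, plus strand), fell with CpG in both genotypes of the first arm. In Tlr9het it read 7.43, 7.51 and 7.33 log2 CPM in replicates 1, 2 and 3 without and 6.06, 6.33 and 6.60 with CpG. In Tlr997 the readings were 7.47, 7.34 and 7.22 without and 6.74, 6.80 and 6.46 with CpG. Unstimulated and stimulated libraries did not overlap in either genotype. The log2 fold change was -1.09 (SE 0.12, limma adjusted p = 2.75e-06), a 2.13-fold reduction, in Tlr9het and -0.68 (SE 0.12, limma adjusted p = 2.55e-04), a 1.597-fold reduction, in Tlr997. In the Tlr779 arm Irf1 was at 7.16, 7.11 and 6.87 without and 7.52, 6.83 and 7.57 with CL097. Replicate 2 with CL097 lay below every unstimulated library, while the other stimulated libraries lay above all unstimulated ones. The log2 fold change of 0.26 was within this spread (95% confidence interval -0.18 to 0.69, limma adjusted p = 0.269), and leaving out 1 library at a time gave 0.12 to 0.49.

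Irf2, the antagonist of Irf1 (chromosome 8, 46739745 to 46847458, plus strand), showed the largest fall of the 5 genes with each agonist. In Tlr9het it was at 8.30, 8.33 and 8.30 log2 CPM without and 6.44, 6.32 and 6.45 with CpG. Its values in Tlr997 were 8.47, 8.28 and 8.33 without and 6.17, 6.11 and 5.88 with CpG. The stimulated libraries of both genotypes lay more than 1 log2 unit below all unstimulated ones. Irf2 fell by 1.91 on the log2 scale (SE 0.08, limma adjusted p = 8.06e-11), 3.76-fold, in Tlr9het and by 2.31 (SE 0.08, limma adjusted p = 2.39e-11), 4.96-fold, in Tlr997. Of all tested genes, 7.31% had a lower fold change than Irf2 in Tlr9het and 4.23% in Tlr997. With CL097 in Tlr779, values of 8.56, 8.50 and 8.44 without agonist stood against 7.34, 7.38 and 7.89 with it, without overlap. This was a fall of 0.97 (SE 0.14, limma adjusted p = 5.41e-04), 1.95-fold, and replicate 3 with CL097 was closest to the unstimulated libraries.

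Irf3, the constitutive factor downstream of nucleic acid sensors (chromosome 7, 44997648 to 45002848, plus strand), passed the test in no comparison. In Tlr9het it was at 6.04, 5.96 and 6.25 log2 CPM without and 5.96, 5.92 and 5.84 with CpG. Its values in Tlr997 were 5.80, 6.01 and 6.03 without and 5.75, 5.94 and 6.10 with CpG, and in Tlr779 they were 5.80, 5.82 and 5.84 without and 5.86, 5.64 and 5.58 with CL097. The groups overlapped in Tlr997 and Tlr779, and in Tlr9het the lowest unstimulated value and the highest stimulated one were both at 5.96 after rounding. The log2 fold changes were -0.18 in Tlr9het (95% confidence interval -0.40 to 0.04, limma adjusted p = 0.128), -0.02 in Tlr997 (-0.24 to 0.20, limma adjusted p = 0.861) and -0.13 in Tlr779 (-0.34 to 0.08, limma adjusted p = 0.2499). All 3 intervals lie within the threshold of 0.5 on either side of 0. Irf3 overlaps Bcl2l12 on the opposite strand, and whether reads were counted by strand is not given in the sources used here.

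Irf5, the MyD88-dependent factor of inflammatory cytokine genes (chromosome 6, 29526130 to 29541869, plus strand, overlapping Tnpo3 on the opposite strand), fell in Tlr9het and Tlr779. In Tlr9het it was at 8.05, 7.94 and 8.05 log2 CPM without and 7.17, 7.04 and 7.14 with CpG. In Tlr997 it was at 8.01, 8.03 and 7.87 without and 7.70, 7.58 and 7.47 with CpG, and in Tlr779 at 7.95, 7.78 and 7.96 without and 7.14, 7.14 and 7.43 with CL097. Stimulated libraries were below unstimulated ones in every genotype, with the narrowest gap in Tlr997. Irf5 fell by 0.90 (SE 0.07, limma adjusted p = 4.37e-08), 1.86-fold, in Tlr9het and by 0.66 (SE 0.10, limma adjusted p = 5.47e-04), 1.58-fold, in Tlr779. In Tlr997 the log2 fold change of -0.38 had an adjusted p of 1.87e-04 by limma and was under the size threshold, a ratio of 1.30-fold.

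Irf8, the ETS partner and lineage factor (chromosome 8, 120736358 to 120756694, plus strand), was the only one of the 5 genes to rise, and it rose in all 3 genotypes. In Tlr9het it was at 8.76, 8.76 and 8.97 log2 CPM without and 9.74, 9.67 and 9.88 with CpG. In Tlr997 it was at 8.96, 8.92 and 8.95 without and 9.66, 9.38 and 9.55 with CpG, and in Tlr779 at 8.82, 8.997 and 8.82 without and 9.57, 9.59 and 9.40 with CL097. No stimulated library overlapped the unstimulated ones of its genotype. The log2 fold change was 0.93 (SE 0.08, limma adjusted p = 1.61e-07), 1.91-fold, in Tlr9het. It was 0.58 (SE 0.08, limma adjusted p = 2.00e-05), 1.49-fold, in Tlr997 and 0.64 (SE 0.08, limma adjusted p = 2.63e-04), 1.56-fold, in Tlr779. Of all tested genes, 79.7% in Tlr9het, 70.1% in Tlr997 and 79.2% in Tlr779 had a lower fold change than Irf8.

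**Figure D2:**
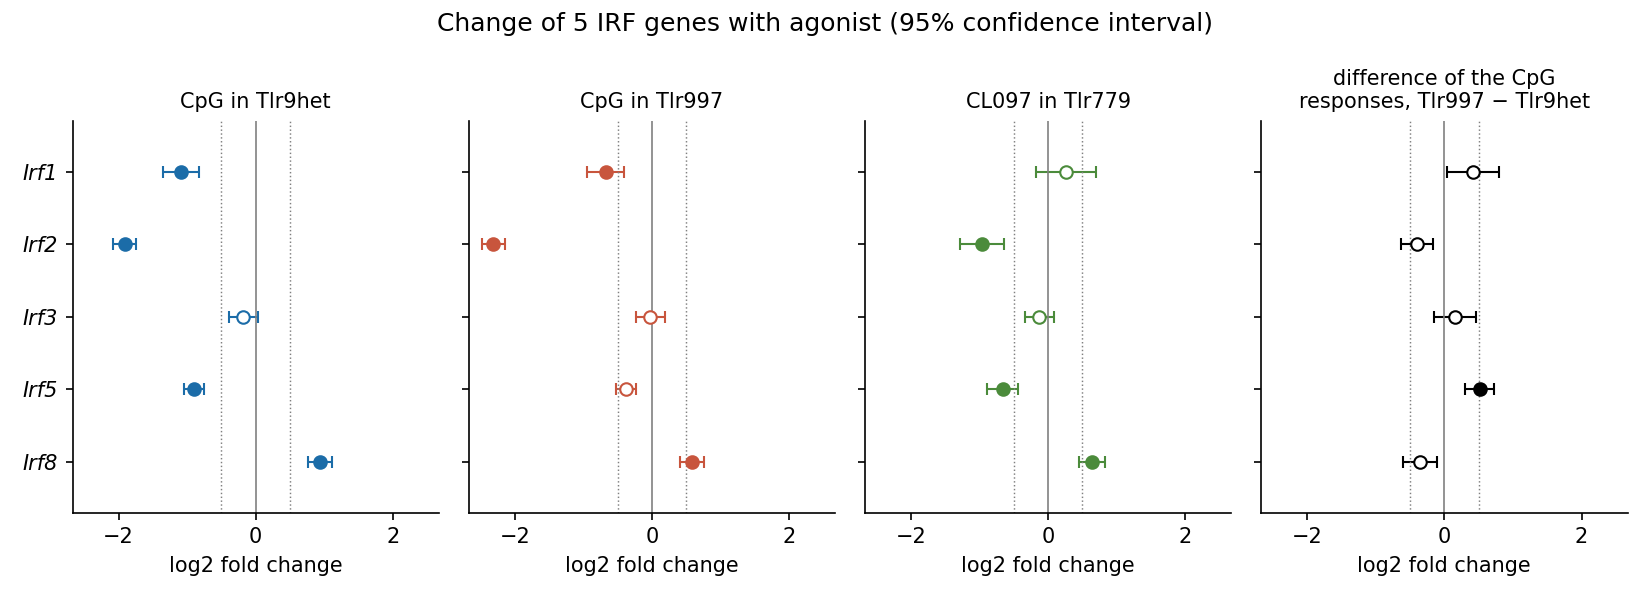
Log2 fold changes of the 5 genes (horizontal axes) with 95% confidence intervals from limma, for CpG in Tlr9het, CpG in Tlr997, CL097 in Tlr779 and the difference of the CpG responses, with filled points for called changes and dotted lines at the size threshold of 0.5. Irf2 lies farthest to the left in each response, at -1.91, -2.31 and -0.97, Irf8 is to the right in each, and in the last panel Irf5 alone is called, at 0.51.

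Within a library, the pairs of IRF genes known to share DNA elements or partners shifted against each other. A change in such a log2 difference does not depend on gene length. The difference Irf1 minus Irf2 went from -0.89 ± 0.08 to -0.07 ± 0.27 with CpG in Tlr9het, from -1.02 ± 0.09 to 0.61 ± 0.07 with CpG in Tlr997 and from -1.45 ± 0.10 to -0.23 ± 0.37 with CL097 in Tlr779 (log2 CPM, SD, n = 3 each). It was thus higher in each stimulated library than in any unstimulated one of its genotype, although Irf1 itself fell with CpG. The difference Irf8 minus Irf2 went from 0.52 ± 0.13 to 3.36 ± 0.06 in Tlr9het, from 0.59 ± 0.08 to 3.47 ± 0.20 in Tlr997 and from 0.38 ± 0.12 to 1.98 ± 0.41 in Tlr779. Irf8 minus Irf5 went from 0.81 ± 0.11 to 2.65 ± 0.09, from 0.98 ± 0.09 to 1.94 ± 0.14 and from 0.98 ± 0.20 to 2.28 ± 0.27 in the same order. These differences follow from the changes given above and are shown as a description, with no test.

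**Figure D3:**
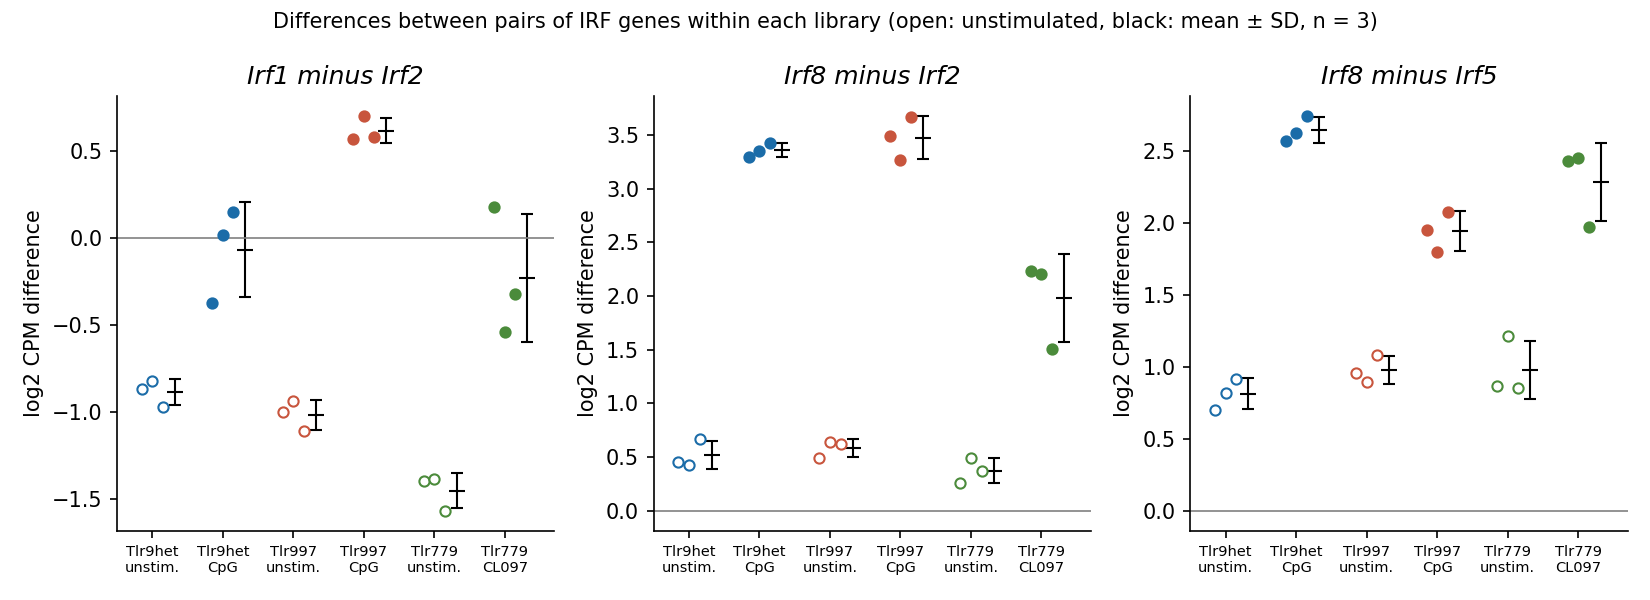
Difference in log2 CPM between 2 IRF genes of the same library (vertical axes) by group (horizontal axes), with open points for unstimulated and filled points for stimulated libraries and black marks for the mean ± SD of 3 libraries. Irf1 minus Irf2 rises from between -1.57 and -0.83 without agonist to between -0.55 and 0.70 with it, and both Irf8 differences are higher in every stimulated library of a genotype.

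The genotypes of the first arm, which differ in the TIR domain of TLR9, were then compared. The gene-level value of Tlr9 differed too. This value was also at 7.24 ± 0.08 in unstimulated Tlr779 libraries, which are labelled Tlr9-/-, so it does not measure functional transcript alone. Unstimulated it was at 7.04 ± 0.02 in Tlr997 against 7.37 ± 0.10 in Tlr9het (log2 CPM, SD, n = 3 each). With CpG it was at 7.31 ± 0.21 against 8.01 ± 0.07, and the libraries did not overlap in either state. The study describes equal TLR9 protein in these genotypes, and the part of this RNA difference in the results was not tested. Without stimulation 0 of the 5 genes were called between Tlr997 and Tlr9het, where 0.0174% of tested genes were called. The log2 differences, Tlr997 minus Tlr9het, were -0.08 for Irf1, 0.05 for Irf2, -0.14 for Irf3, -0.04 for Irf5 and 0.12 for Irf8, with limma adjusted p-values from 0.607 to 0.847, and 0 of the 5 had an unadjusted p under 0.05. With CpG 0 of 5 were called, where 2.73% of tested genes were called. Irf5 was 0.47 higher in Tlr997 (SE 0.07, limma adjusted p = 0.00158) and Irf2 was 0.35 lower (SE 0.08, limma adjusted p = 0.0161), both without overlap of the libraries and both under the size threshold. Irf1 was 0.34 higher (limma adjusted p = 0.154) with overlapping libraries, Irf8 was 0.23 lower (limma adjusted p = 0.119) without overlap, and Irf3 differed by 0.02. Of the 5, Irf1, Irf2, Irf5 and Irf8 had an unadjusted p under 0.05 in this comparison. Without replicate 3 of Tlr997 with CpG, Irf5 passed the size threshold too, at 0.52.

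The difference of the CpG responses, tested as an interaction, was called for 1 of the 5 genes, Irf5, where 1.54% of tested genes were called. Between libraries of the same replicate number Irf5 changed by -0.89, -0.89 and -0.91 in Tlr9het and by -0.30, -0.45 and -0.40 in Tlr997, so that the ranges do not overlap, although the numbers were not shown to pair the Tlr997 libraries. The interaction was 0.51 (SE 0.10, limma adjusted p = 0.0171), just over the size threshold. The call was lost without a filter on low values (adjusted p = 0.075), without a trend in the variance (adjusted p = 0.067) and in 5 of 12 fits that left out 1 library, which gave 0.45 to 0.57. Those libraries were replicates 1 and 3 of unstimulated Tlr9het, replicate 2 of Tlr9het with CpG, replicate 3 of unstimulated Tlr997 and replicate 1 of Tlr997 with CpG, with 0.49, 0.50, 0.48, 0.46 and 0.45. For the other genes the interaction was 0.42 for Irf1 (95% confidence interval 0.04 to 0.79, limma adjusted p = 0.261), -0.40 for Irf2 (-0.63 to -0.17, limma adjusted p = 0.0799), 0.16 for Irf3 (-0.15 to 0.47, limma adjusted p = 0.645) and -0.35 for Irf8 (-0.60 to -0.11, limma adjusted p = 0.142). Each of these missed the threshold, which does not show that the responses were alike.

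Of the other family members, Irf4, the plasma cell factor, rose with each agonist, while Irf7, the factor tied to type I interferon production, passed the test in 0 of the 3 responses and Irf9 in 1. Irf4 was at 9.43 ± 0.10 log2 CPM without and 11.04 ± 0.07 with CpG in Tlr9het, 9.52 ± 0.08 and 10.88 ± 0.04 in Tlr997, and 9.29 ± 0.03 without and 10.87 ± 0.11 with CL097 in Tlr779 (SD, n = 3 each). Its log2 fold changes were 1.61, 1.36 and 1.58 (SE 0.06, 0.06 and 0.07), with limma adjusted p-values of 8.09e-11, 4.89e-10 and 3.99e-06. The rise of Irf4 exceeded that of Irf8 within the same libraries, with Irf4 minus Irf8 going from 0.60 ± 0.20 to 1.27 ± 0.11, from 0.57 ± 0.09 to 1.35 ± 0.18 and from 0.41 ± 0.08 to 1.35 ± 0.07. Irf7 had log2 fold changes of -0.43, 0.27 and 0.77 with limma adjusted p-values of 0.0575, 0.229 and 0.160, and its libraries overlapped in each comparison. Leaving out 1 library at a time gave -0.70 to -0.28 in Tlr9het, where Irf7 was called lower without replicate 3 of the unstimulated libraries (limma adjusted p = 6.67e-04), and 0.40 to 1.26 with CL097, where it was called higher without replicate 2 with CL097 (limma adjusted p = 0.00881). A block for replicate numbers also gave a call for the 0.77 with CL097 (limma adjusted p = 0.00693). Irf9 changed by -0.50 with CpG in Tlr9het (limma adjusted p = 1.18e-05), a call at the size threshold that was lost in 4 of 6 fits without 1 library, and by -0.31 in Tlr997 and -0.03 with CL097.

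Among genes whose products bind DNA with IRF proteins or bind to them, 9 of 10 were tested and 6 fell and 1 rose with CpG in each genotype, where 28.2% of all tested genes fell and 29.7% rose in Tlr9het, and 26% and 29.6% in Tlr997. The median log2 fold change of the 9 was -1.13 in Tlr9het, against 0.04 over all tested genes, and -0.88 in Tlr997, against 0.07. Sfpi1, which encodes PU.1, fell by 1.13 in Tlr9het, 1.18 in Tlr997 and 0.90 with CL097 in Tlr779, and Spib, which encodes the related ETS factor Spi-B, fell by 1.53, 1.06 and 1.07. Both are DNA-binding partners of IRF4 and IRF8, and they fell in the libraries in which Irf4 and Irf8 rose. Batf, the AP-1 factor that pairs with IRF4 and IRF8 on composite elements, rose by 5.46, 4.64 and 4.47, and in Tlr9het its mean went from 3.399 ± 0.14 to 8.86 ± 0.14 log2 CPM (SD, n = 3 each). Its rise was 0.82 smaller in Tlr997 than in Tlr9het (SE 0.16, limma adjusted p = 0.0193). Ets1 fell by 3.56, 3.61 and 1.79, Ikzf1, which encodes Ikaros, by 1.15, 0.85 and 1.32, and Irf2bpl, which encodes a relative of the IRF2-binding corepressors, by 1.496, 1.92 and 1.87. With CL097 5 of the 9 fell and 2 rose, Batf and Irf2bp2 (0.95), where 23.6% of all tested genes fell and 22.7% rose, at a median of -0.90 against -0.02 over all tested genes.

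**Figure D4:**
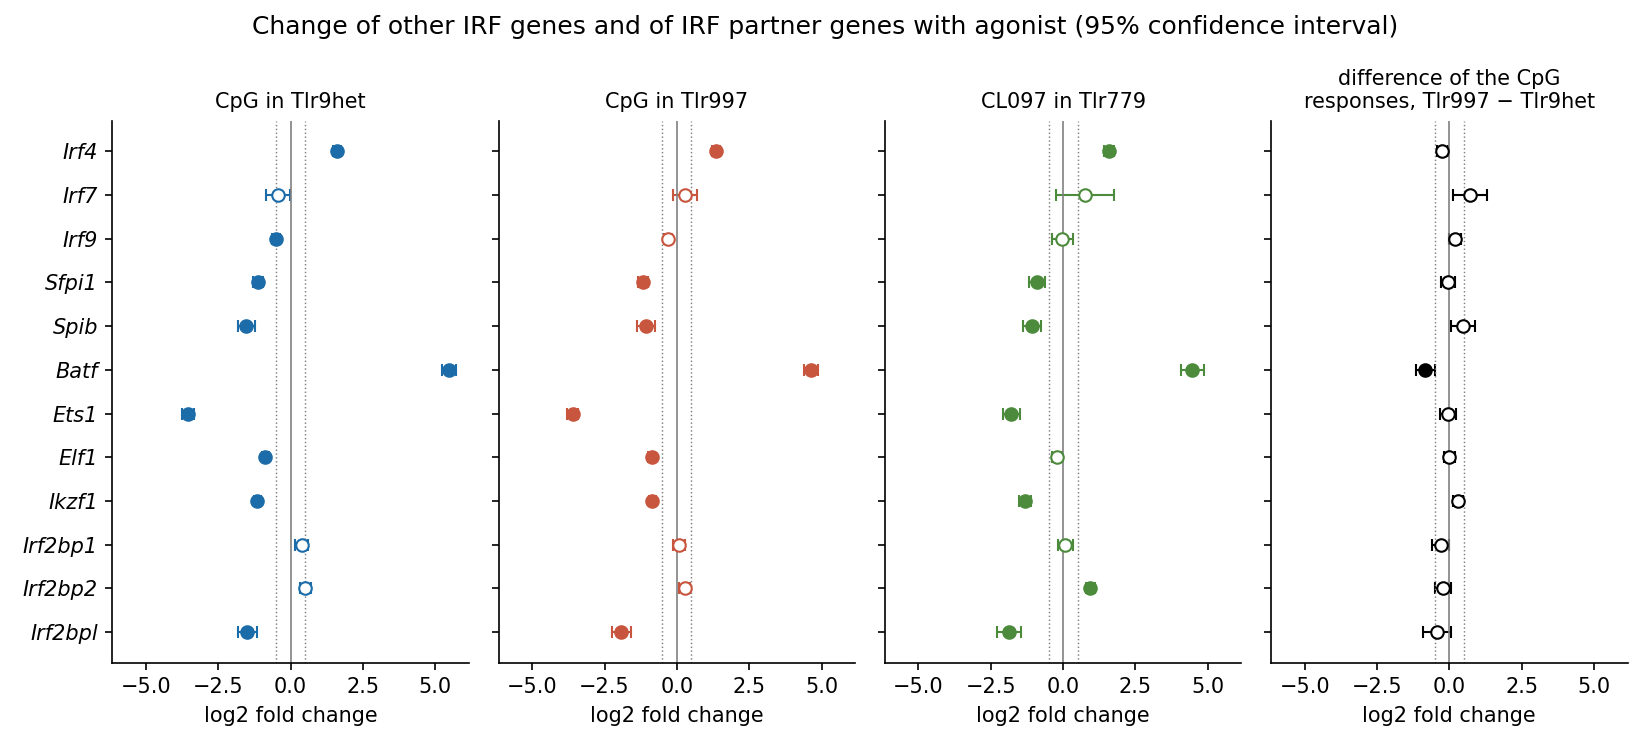
Log2 fold changes (horizontal axes) with 95% confidence intervals from limma for the other tested IRF genes and 9 IRF partner genes in the same 4 comparisons, with filled points for called changes and dotted lines at the size threshold of 0.5. Irf4 and Batf are called to the right in each response, at 1.61 and 5.46 with CpG in Tlr9het, Sfpi1, Spib, Ets1, Ikzf1 and Irf2bpl are called to the left in each, and Batf alone is called in the last panel.

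Of 16 tested genes for adaptors and kinases that act on IRF3, IRF5 and IRF7, 2 rose and 6 fell with CpG in Tlr9het, where 29.7% and 28.2% of all tested genes did (median -0.23, against 0.04 over all tested genes). In Tlr997 1 of the 16 rose and 6 fell, where 29.6% and 26% of all genes did (-0.14, against 0.07), and with CL097 1 rose and 4 fell, where 22.7% and 23.6% did (-0.09, against -0.02). Tmem173, which encodes the adaptor STING upstream of TBK1 and IRF3, fell by 3.195, 2.56 and 2.33, and its fall was 0.64 smaller in Tlr997 than in Tlr9het (SE 0.14, limma adjusted p = 0.0423). Slc15a4, which encodes a lysosomal transporter needed for endosomal TLR signaling to IRF5, fell by 1.66, 1.52 and 1.09, while the kinase gene Ikbke rose by 1.87, 1.93 and 2.04. Irak2, which encodes a kinase-like protein of the MyD88 complex, fell by 1.37, 1.199 and 0.70. Mavs, the adaptor gene of cytosolic RNA sensing, fell by 0.82 with CL097. It was lower with CpG too, at 5.69 ± 0.05 log2 CPM without and 4.78 ± 0.07 with CpG in Tlr9het. In Tlr997 it was at 5.59 ± 0.07 and 4.91 ± 0.01 (SD, n = 3 each).

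In the interferon-γ pathway that induces Irf1, Socs1, which encodes the inhibitor of the pathway, rose by 2.56, 1.32 and 2.03, and its rise with CpG was 1.24 smaller in Tlr997 (SE 0.28, limma adjusted p = 0.0434). Ifngr1, a receptor chain, fell by 0.83 with CpG in Tlr997 and had a log2 fold change of 0.10 in Tlr9het, and the interaction was -0.93 (SE 0.11, limma adjusted p = 9.58e-04). Ifngr2, the other chain, fell by 0.67 in both genotypes. Stat2, the gene of an ISGF3 subunit, fell by 1.53 and 0.74 with CpG, and its fall was 0.79 smaller in Tlr997 (SE 0.16, limma adjusted p = 0.0225).

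Genes widely described as targets of IRF1 were called in both directions with each agonist. With CpG in Tlr9het 7 of 20 tested rose and 8 fell, where 29.7% and 28.2% of all tested genes did, at a median of -0.25 against 0.04 over all of these. In Tlr997 7 of 20 rose and 6 fell (29.6% and 26% over all tested genes), at a median of -0.08 against 0.07. Il15, among those that rose with CpG, was at -1.20 ± 0.42 log2 CPM in unstimulated Tlr9het and -0.38 ± 0.53 in unstimulated Tlr997 (SD, n = 3 each). It passed the filter on low values mainly through libraries with CpG, so its rise supports nothing further. With CL097 7 of 19 tested rose and 3 fell (22.7% and 23.6% over all tested genes), at a median of 0.26 against -0.02. The guanylate-binding protein gene Gbp5 rose by 3.34, 3.51 and 2.17, the chemokine gene Cxcl10 by 2.55, 3.31 and 3.49, Il15ra by 2.503, 2.56 and 2.44 and Cd274, which encodes the inhibitory ligand PD-L1, by 2.01, 1.78 and 2.92. Among those that fell, chosen here after their values were seen, were Casp1, which encodes the inflammatory caspase-1, by 1.17, 1.15 and 0.65, the immunoproteasome subunit gene Psmb10 by 0.86, 0.83 and 0.76, and Ciita, which encodes the MHC class II transactivator, by 1.01, 0.58 and 1.17. With CpG, Psmb8 (0.51), an immunoproteasome subunit gene, and Nlrc5 (0.57), the MHC class I transactivator gene, were higher in Tlr997 than in Tlr9het, 2 of 20 called higher and 0 lower, where 1.26% and 1.47% of all tested genes were. Of the 20, 17 had a positive difference, at a median of 0.26 against 0.00 over all tested genes, beside a difference of 0.34 for Irf1 that was not called. The 17 include Il15, with the limit given above. Without stimulation 16 of the same 20 genes already had a positive difference, at a median of 0.10 against -0.01 over all tested genes, while Irf1 differed by -0.08.

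Among genes widely described as targets of IRF5, 3 of 5 tested rose with each agonist and 0 fell, where 29.7%, 29.6% and 22.7% of all tested genes rose with CpG in Tlr9het, CpG in Tlr997 and CL097 in Tlr779. In the CL097 comparison Il6 and Il12b passed the filter on low values only through stimulated libraries, so their rise there supports nothing further. Il6 rose by 4.93, 4.39 and 6.66, and Tnf by 2.31, 1.69 and 3.46. Il12b, the shared subunit of IL-12 and IL-23, was at -0.31 ± 0.42 log2 CPM without and 7.87 ± 0.14 with CpG in Tlr9het, at 1.11 ± 0.69 and 6.72 ± 0.08 in Tlr997, and at -3.17 ± 1.63 without and 7.42 ± 0.65 with CL097 in Tlr779 (SD, n = 3 each). Its unstimulated values in Tlr779 reach down to the lowest values of the files, and no fold is given there. With CpG, Il12a, Il12b and Tnf were lower in Tlr997 than in Tlr9het (by 0.53, 1.15 and 0.58), 3 of 5 tested where 1.47% of all tested genes were called lower, at a median of -0.63 over the 5 against 0.00, while Irf5 was 0.47 higher. The rise with CpG was smaller in Tlr997 by 2.56 for Il12b (SE 0.40, limma adjusted p = 0.00546) and by 0.62 for Tnf (SE 0.13, limma adjusted p = 0.0355). The 2.56 rests in part on the low unstimulated values of Il12b, -0.31 in Tlr9het and 1.11 in Tlr997, as the genotypes differed by 1.15 with CpG. Of 7 type I interferon genes, the products of IRF3 and IRF7 activity, 2 passed the filter on low values in the first arm and 0 in the second. Those 2 passed through stimulated libraries, so no count of rises is given for them.

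The genes whose levels followed each IRF gene most closely over the 12 libraries of the first arm were listed, with the same r over the 6 Tlr779 libraries. The libraries fall into 4 and 2 groups and share the agonist, so these values describe these libraries and carry no test. For Irf2 the closest were Klf3, Plac8 and Stk24, each at r = 0.997 over 12 libraries and at 0.97, 0.17 and 0.96 over 6. Irf5 was followed by Cd180 (0.99 and 0.98), which encodes the TLR-like receptor RP105, Rhof (0.98 and 0.93) and Fam111a (0.98 and 0.96). Irf8 was followed by Marcksl1 (0.99 and 0.98), Igfbp4 (0.98 and 0.96) and Srrd (0.98 and 0.96). The closest genes of Irf1 were Nanos1 (0.99), B430306N03Rik (0.99) and Sla2 (0.98), at -0.63, 0.82 and -0.27 over the Tlr779 libraries, where Irf1 was not called. These genes were low, with means of 1.87, 2.01 and -0.80 log2 CPM over the 12 libraries. Irf3 had the weakest companions, Mib2 (0.88), Vps16 (0.86) and 2810403A07Rik (0.86). Of all tested genes, 13.1% had an r over 0.9 with Irf1, 21.4% with Irf2, 0 with Irf3, 6.37% with Irf5 and 20.2% with Irf8. Between the 5 genes themselves, Irf5 and Irf8 had an r of -0.91 over the 12 libraries and -0.995 over the 6, and Irf2 and Irf5 had 0.82 and 0.98, while Irf1 and Irf2 had 0.89 over the 12 and -0.26 over the 6.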

How the data were processed

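RNA was isolated by the authors from bead-purified splenic B cells, and stranded mRNA libraries were sequenced from both ends. Per the submitters' processing notes the tools were FastQC 0.11.7, Trim Galore 0.6.5, STAR 2.6.1a, featureCounts of Subread 2.0.1 and limma, with build mm10. The deposited values were log2 CPM after quantile normalization and voom, 1 file per library, with no counts. They bore a trace of an offset removed per replicate number: among the 6614 genes that lay below -4 throughout the first arm, 6306 had a single value per number, and for 822 it differed between numbers. The residual degrees of freedom used below take no account of this step.

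Tests covered genes with a value over 0 log2 CPM in 3 or more fitted libraries, using limma 3.58.1 in R 4.3.3 and a variance trend, on the deposited log2 values, with no pseudocount added. The 12 libraries of the first arm shared 1 model, and the 6 Tlr779 libraries had their own. Calls required a Benjamini-Hochberg adjusted p below 0.05 and a log2 fold change of more than 0.5 in size, the study's thresholds. Since the values hold voom's small offset, changes of low genes are understated. The script was tested on simulated data. The IRF genes and the gene lists were chosen with earlier results of these data known. Besides the IRF genes, up to 4 called genes per list and comparison with the largest change and a mean over 2 log2 CPM could be named, and not every one of them is. Some listed items are not reported here. Gene lists were matched by symbol, with older symbols where needed (Sfpi1 for Spi1). Exon lengths and coordinates came from GRCm38 annotation, and promoters from RefSeq.

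Replicate numbers were checked for pairing by correlating deviations from group means over all tested genes. Same-numbered unstimulated and stimulated libraries correlated at 0.51, 0.29 and 0.51 in Tlr9het and 0.25, 0.49 and 0.33 in Tlr779, which were taken as paired, and at 0.37, 0.083 and 0.025 in Tlr997, which were not. The main fits held no term for the replicate number, so their standard errors and p-values treat all libraries as unpaired. Pairing entered only through the replicate blocks run as alternatives. Alternatives were a replicate block, other filters and scalings, a pseudocount of 1 CPM, no variance trend, 1 model for all 18 libraries and leaving out each library.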

Additional observations from a re-analysis of the deposited data

Results flagged for a closer look

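A set of 8 results stood out because the CpG response differed between the genotypes by the test of the difference itself. They are the genes called in this test among the IRF genes and the pathway lists. Over all 11494 tested genes 1.54% were called in it. Irf5 had a difference of the responses, Tlr997 minus Tlr9het, of 0.51 on the log2 scale. Positive differences were also found for Stat2 (0.79) and Tmem173 (0.64), whose falls were smaller in Tlr997. Negative differences were found for Il12b (-2.56), Socs1 (-1.24), Batf (-0.82) and Tnf (-0.62), whose rises were smaller in Tlr997, and for Ifngr1 (-0.93), which fell in Tlr997 alone of the genotypes given CpG. The value of Il12b rests in part on low unstimulated levels. Groups of 3 libraries were too small for a search for outlying libraries.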

How the results depend on the processing

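In the CpG and CL097 responses each call of Irf1, Irf2, Irf5 and Irf8 held its direction and its side of the threshold under every alternative run (median centring, a pseudocount of 1 CPM, no filter, no variance trend, 1 model for 18 libraries, the replicate block and each library left out). The counts of called genes in the responses stayed within 1.5 times their value. Without the filter on low values the number of genes called fell from 2 to 0 between unstimulated genotypes, from 314 to 188 with CpG and from 177 to 78 in the interaction, where the interaction of Irf5 (0.51) was at an adjusted p of 0.075 and 0 of the 5 IRF genes were called. Without a variance trend the interaction had 98 genes and 0 of the 5 called, with Irf5 at 0.51 (adjusted p = 0.067). More genes are tested without the filter. The cause of the other losses was not tested.

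With a block for the replicate number inside each genotype, an alternative chosen after the data were seen, 329 genes were called in the interaction, 160 higher and 169 lower. The block changed no call of the 5 IRF genes. Irf7 was called under it for its interaction (0.70, limma adjusted p = 0.0307), which was also called at 0.97 without replicate 3 of unstimulated Tlr9het. The other replicate block, with numbers shared by the genotypes, did not call this interaction. That block called Irf7 for its CL097 response and for its difference between genotypes with CpG (0.58, limma adjusted p = 0.0252). The numbers were not shown to pair libraries of different genotypes or those of Tlr997.

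Leaving out 1 library at a time gave 2 to 4 genes between unstimulated genotypes, 187 to 249 genes and 0 to 1 of the 5 IRF genes with CpG, with Irf5 at 0.41 to 0.52, and 87 to 295 genes and 0 to 1 of the 5 in the interaction, with Irf5 at 0.45 to 0.57. Signs turned only among uncalled differences near 0, which ranged from -0.11 to 0.070 for Irf3 with CpG in Tlr997, from -0.0047 to 0.091 for Irf2 and -0.082 to 0.004 for Irf5 between unstimulated genotypes, from -0.065 to 0.11 for Irf3 between genotypes with CpG, from -0.39 to 0.034 for Irf7 and -0.0033 to 0.084 for Irf9 between unstimulated genotypes, and from -0.16 to 0.14 for Irf9 with CL097. The fall of Irf9 in Tlr9het ranged from -0.54 to -0.47. Depth is unknown and limits low genes such as the type I interferon genes.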
